A study of Mus musculus with 7 samples.

Results

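The genes examined here encode 10 proteins of branched-chain amino acid breakdown, *Bcat1*, *Bcat2*, *Bckdha*, *Bckdhb*, *Dbt*, *Dld*, *Bckdk*, *Ivd*, *Mccc1* and *Mccc2*. They were found by symbol among the 23284 gene symbols of the deposited tables, and each was listed once, with an accepted estimate, in every papilloma. The list was chosen on the FPKM difference between the genotypes in these same papillomas. That difference is therefore given below as a description, without a test, for these 10 genes.

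Papillomas are benign skin tumors, here raised on the back skin of age-matched C57Bl/6 mice with the mutagen DMBA followed by repeated TPA. Both genotypes carried the *tetO-Nanog* allele, a *Nanog* cDNA behind a doxycycline-responsive promoter, and drank doxycycline (2 mg/ml) from before DMBA until collection. CTR mice (n = 4) lacked the transactivator, whereas TG mice (n = 3) carried *K5-rtTA*, in which the bovine keratin 5 promoter drives it in basal keratinocytes. The libraries came from papillomas of different mice, collected when the protocol ended or earlier for welfare reasons. The paper reports early sacrifice for large carcinomas in many TG mice, and carcinomas in TG mice only. Time of collection may therefore differ between the genotypes. Age at collection was not analysed here.

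Leucine, isoleucine and valine are broken down in mitochondria in a shared opening and then in separate branches. A branched-chain aminotransferase (BCAT2 in mitochondria, BCAT1 in the cytosol) removes the amino group, and the branched-chain 2-oxo acid dehydrogenase complex commits the product to oxidation. That complex is built from an E1 heterotetramer (BCKDHA and BCKDHB), an E2 core (DBT) and E3 (DLD), and the kinase BCKDK turns it off by phosphorylating BCKDHA. IVD and the biotin enzyme methylcrotonyl-CoA carboxylase (MCCC1 and MCCC2) then act in the leucine branch alone.

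*Bckdhb* was the gene in which the genotypes stood apart. Its FPKM was 1.86-fold higher in TG than in CTR papillomas, while its partner *Bckdha* had a ratio of group means of 1.08. Among the 9 members with a mean of at least 0.5 FPKM, *Bckdhb* was the 1 whose TG values all lay above the CTR values, and 0 lay wholly below. For all 12299 genes above that minimum, the shares were 4.93% above and 2.23% below, and nothing is read from the members' counts, since the same contrast chose them. The other 8 overlapped between the genotypes, and their group means differed by less than 1.5-fold either way.

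The start of *Bckdhb* is shown first, because the tables use 1 of its annotated starts. The tables place the gene on chromosome 9 from 83948781 to 84124240 (GRCm38/mm10). These limits equal those of the GENCODE M21 transcript *Bckdhb*-205, with 11 exons and a first exon from 83948781 to 83948915. Transcript *Bckdhb*-206 begins upstream at 83925145, and 10 of its 11 exons begin at the same bases as exons of *Bckdhb*-205. Reads from the shared exons count for the gene from either start, and the values do not tell the start sites apart. Sequence in front of the upstream RefSeq start at 83925137, which lies 23644 bases before the start used in the tables, and in front of the start used in the tables is given from 160 to 31 bases before each (RefSeq, GRCm38.p6, plus strand, chr9:83924977-83925106 and chr9:83948621-83948750). Capitals mark the GC box GGGCGG and the CCAAT box on either strand.

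*Bckdhb* upstream start: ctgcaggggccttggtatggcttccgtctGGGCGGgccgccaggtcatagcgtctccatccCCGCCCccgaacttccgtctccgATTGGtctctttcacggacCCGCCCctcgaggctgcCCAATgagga
*Bckdhb* start used in the tables: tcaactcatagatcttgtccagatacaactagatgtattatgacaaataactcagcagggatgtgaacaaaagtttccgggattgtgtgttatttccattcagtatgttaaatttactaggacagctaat

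The upstream stretch held 3 GC boxes and 2 CCAAT boxes, and the stretch at the start used in the tables held 0 of either. The whole window of that start (250 bases before to 50 after) held 1 CCAAT box, outside the printed stretch. Over the whole window of each start, GC content was 65.0% upstream and 37.3% at the start used in the tables, with a median of 52.7% over all 32851 windows. Windows were found for 9 of the 10 members, all but *Dbt*, 12 windows in all. CCAAT was in 8 of the 12 and in 37.4% of all windows, GGGCGG in 2 of the 12 and in 35.7%. The E-box CACGTG was in 1 (7.15% of all windows) and TATAAA in 2 (13.6%). The motifs were searched on both strands, and a match is a description of these letters only.

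Depth and composition bear on every value below. Cufflinks interval widths implied between 10075000 and 15711000 reads on genes per papilloma, with CTR 3 and TG 1 the deepest. *Nanog* was at 2.70, 2.84, 12.7 and 3.34 FPKM in CTR 1 to CTR 4 and between 36.9 and 66.9 in TG papillomas. Keratinocyte markers were abundant in each papilloma, with *Krt14* at no less than 4717 FPKM. TG 3 stood apart. Its median FPKM over all symbols kept was 1.135, against 0.539 to 0.673 elsewhere, and 65 of its entries had a failed estimate, against 17 to 34. Its 8 skeletal muscle markers summed to 589.2 FPKM, against at most 3.38 in any other papilloma, and its 5 fibroblast markers to 468.5 FPKM, against 48.1 to 82.0 elsewhere. 5 adipocyte markers (*Adipoq*, *Plin1*, *Cidec*, *Lep* and *Retn*) summed to 8.71 FPKM in TG 3 and to at most 0.125 elsewhere. *Fabp4*, the sixth, was at 1374 FPKM or more in each papilloma. The 4 endothelial markers (20.02 FPKM against 4.63 to 11.4) were also highest in TG 3. The 6 leukocyte markers summed to 43.9 FPKM in TG 3 against 19.96 to 25.0 elsewhere, with 4 of the 6 highest there, while *Cd68* (18.2 FPKM) was within the CTR range and *Ms4a1* was at 0. The 7 keratinocyte markers summed to 7184 FPKM in TG 3, 8338 to 11624 in CTR and 15360 to 17562 in TG 1 and TG 2. *Krt14*, *Krt1* and *Krt10* were lowest in TG 3 and *Krt5* and *Dsg3* highest, and *Krt1* and *Krt10* were higher in TG 1 and TG 2 than in each CTR papilloma. The part of these differences in the members' values was not tested. In whole papillomas, fewer cells of a type cannot be told apart from less RNA per cell.

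**Figure D1:**
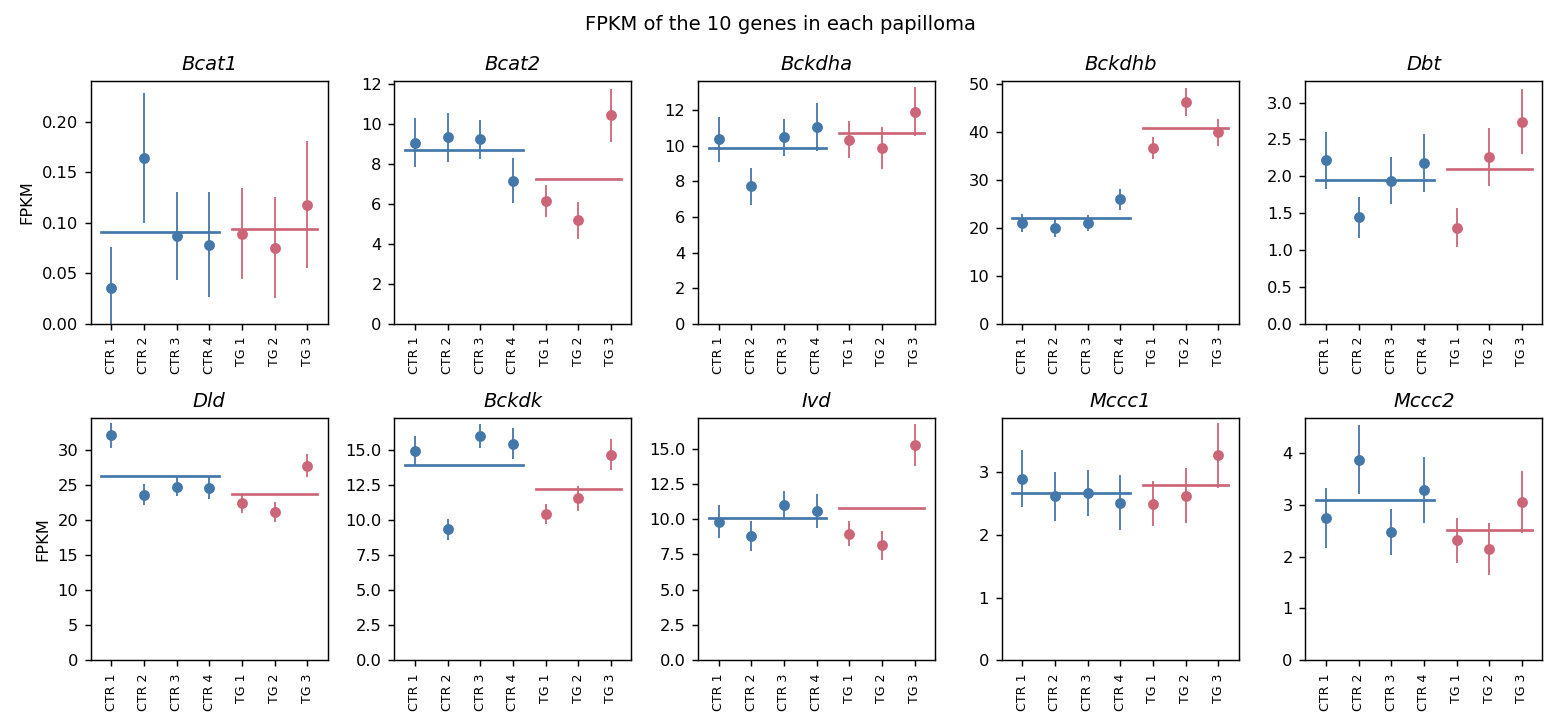
FPKM of each member (vertical axes from 0, a scale for each gene) in the 4 CTR (blue) and 3 TG (red) papillomas. Points are FPKM, bars the Cufflinks interval for counting error, and horizontal lines the group means. *Bckdhb* separates the genotypes, with TG values from 36.7 to 46.2 and CTR values from 19.9 to 26.0, and *Bcat1* stays below 0.2 FPKM.

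The aminotransferases were unequal in level. *Bcat1* (chromosome 6, from 144993835 to 145076157) was at 0.0358, 0.164, 0.0865 and 0.0781 FPKM in CTR 1 to CTR 4 and at 0.0892, 0.0754 and 0.118 in TG 1 to TG 3. Its values rested on an implied 3.2 to 25.7 reads per papilloma, and the TG values lay within the CTR range. The mitochondrial enzyme was the abundant one.

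*Bcat2* (chromosome 7, from 45570153 to 45589710) was at 9.08, 9.34, 9.24 and 7.17 FPKM in the 4 CTR papillomas. In TG papillomas it was at 6.15, 5.19 and 10.4 FPKM. TG 1 and TG 2 lay below each CTR papilloma and TG 3 above each. TG 3 was also the papilloma with the highest sums of muscle, fibroblast, endothelial, leukocyte and 5 adipocyte markers. The part of those cell types in this value was not tested. The means were 8.71 ± 1.03 FPKM (SD, n = 4) in CTR and 7.26 ± 2.79 (SD, n = 3) in TG papillomas, a difference of -0.30 on the log2(FPKM + 0.5) scale (standard error 0.24), and of -0.57 without TG 3. The antisense gene *0610005C13Rik*, which overlaps *Bcat2*, was at no more than 0.119 FPKM.

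In the dehydrogenase complex, the E1 subunits parted. *Bckdha*, the E1 alpha subunit (chromosome 7, from 25629852 to 25658761), was at 10.4, 7.72, 10.5 and 11.1 FPKM in CTR and at 10.3, 9.88 and 11.9 FPKM in TG papillomas. The TG values lay among those of CTR or, in TG 3, just above them, and the genotypes differed by 0.12 on the log2 scale (standard error 0.17). *B3gnt8*, which overlaps the end of *Bckdha* on the opposite strand, was at 3.30 to 4.16 FPKM.

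*Bckdhb*, the E1 beta subunit, was at 21.0, 19.9, 21.1 and 26.0 FPKM in the CTR papillomas. It was at 36.7, 46.2 and 39.9 FPKM in the TG papillomas. Each TG value exceeded each CTR value (12 of 12 pairs), and the gap between the highest CTR and the lowest TG papilloma was wider than the CTR range. Means were 22.0 ± 2.71 FPKM (SD, n = 4) and 40.9 ± 4.86 FPKM (SD, n = 3), with a log2 difference of 0.88 (standard error 0.16). It was 0.90 without TG 3 and between 0.79 and 0.96 with any 1 papilloma left out. The counting intervals, which leave out variation between mice, did not meet, since the lowest TG bound was 34.4 FPKM and the highest CTR bound 28.2. Like the pairs and the gap, this describes values on which the list was chosen. Between 457.6 and 1038 implied reads lay behind each value.

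The ratio of *Bckdhb* to *Bckdha* within a papilloma uses the same *Bckdhb* values and is a description, not added support. It was 2.03, 2.58, 2.01 and 2.35 in CTR and 3.54, 4.68 and 3.35 in TG papillomas. On the same values, *Bckdhb* made up 32.0% to 40.8% of the summed FPKM of the 4 complex genes in CTR and 48.5% to 58.1% in TG papillomas.

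**Figure D2:**
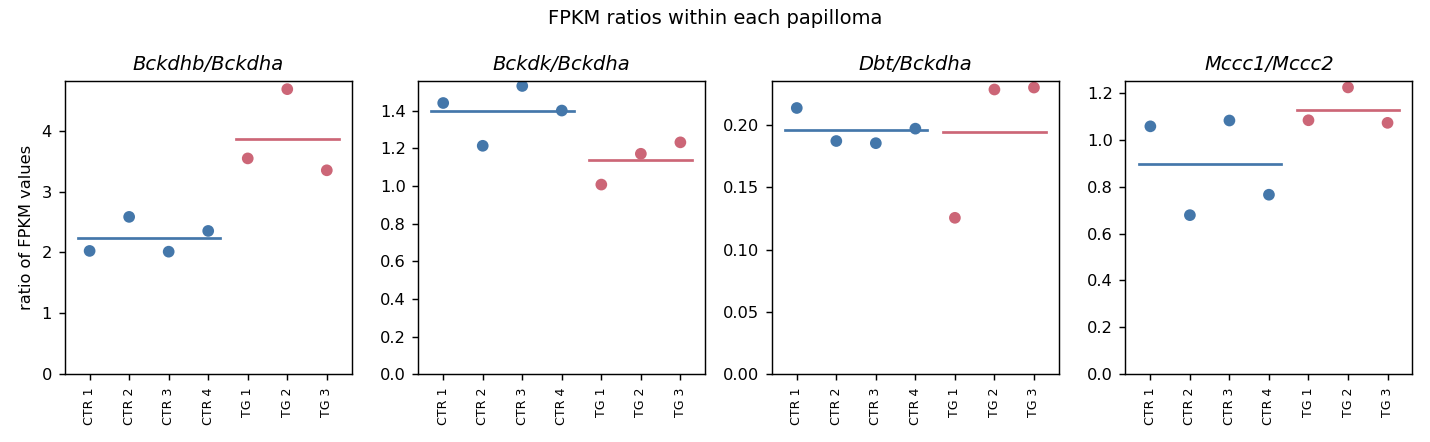
Ratios of FPKM between members within each papilloma (vertical axes from 0, no unit), CTR in blue and TG in red, with lines at the group means. *Bckdhb*/*Bckdha* is 2.01 to 2.58 in CTR and 3.35 to 4.68 in TG papillomas, while *Bckdk*/*Bckdha*, *Dbt*/*Bckdha* and *Mccc1*/*Mccc2* overlap.

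*Dbt*, the E2 core that carries lipoic acid (chromosome 3, from 116513079 to 116549981), was at 2.22, 1.44, 1.94 and 2.18 FPKM in CTR papillomas. It was at 1.299, 2.26 and 2.74 FPKM in TG papillomas, with TG 1 the lowest and TG 3 the highest of the 7. The log2 difference of 0.06 (standard error 0.25) became -0.12 without TG 3 and 0.30 without TG 1. *Dbt* was the least abundant gene of the complex and lay above 22.9% of the tested genes by mean FPKM, where *Bckdhb* lay above 87.4%.

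*Dld*, the E3 subunit that pyruvate and 2-oxoglutarate dehydrogenases also use (chromosome 12, from 31331562 to 31351437), was at 32.1, 23.7, 24.8 and 24.6 FPKM in CTR papillomas. TG papillomas had 22.4, 21.2 and 27.8 FPKM, of which TG 1 and TG 2 were below each CTR value. On the log2 scale TG lay at -0.14 relative to CTR (standard error 0.17), and at -0.25 without TG 3. In CTR papillomas *Dld* was the highest of the 10 genes except in CTR 4, and in TG papillomas *Bckdhb* was highest in each.

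*Bckdk*, the inhibitory kinase (chromosome 7, from 127904073 to 127909664), was at 15.0, 9.37, 16.04 and 15.5 FPKM in CTR and at 10.4, 11.6 and 14.7 FPKM in TG papillomas. The TG values fell between CTR 2, the lowest, and the other CTR papillomas. TG minus CTR was -0.17 in log2 units (standard error 0.22), and -0.30 without TG 3. Relative to its substrate *Bckdha*, the ratio was 1.44, 1.21, 1.53 and 1.40 in CTR and 1.01, 1.17 and 1.23 in TG papillomas, which overlap through CTR 2 and TG 3.

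In the leucine branch the levels of the genotypes overlapped for each gene. *Ivd*, which oxidises isovaleryl-CoA (chromosome 2, from 118862000 to 118881357), was at 9.82, 8.81, 11.02 and 10.6 FPKM in CTR and at 8.98, 8.16 and 15.2 FPKM in TG papillomas. TG 3 was the highest of the 7, and TG 2 the lowest. The log2 difference of 0.05 (standard error 0.22) turned to -0.22 without TG 3.

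*Mccc1*, the biotin-carrying alpha subunit of the carboxylase (chromosome 3, from 35959306 to 36000678), was the steadiest member. Its 7 values lay between 2.50 and 3.27 FPKM, and its coefficient of variation over the CTR papillomas was 6.07%. *Mccc2*, the beta subunit (chromosome 13, from 99948532 to 100015639), was at 2.74, 3.86, 2.47 and 3.28 FPKM in CTR and at 2.31, 2.15 and 3.05 FPKM in TG papillomas. The log2 difference was 0.05 (standard error 0.17) for *Mccc1* and -0.25 (standard error 0.21) for *Mccc2*. Their ratio ranged from 0.678 to 1.08 in CTR and from 1.07 to 1.22 in TG papillomas, an overlap between CTR 3 and TG 3.

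**Figure D3:**
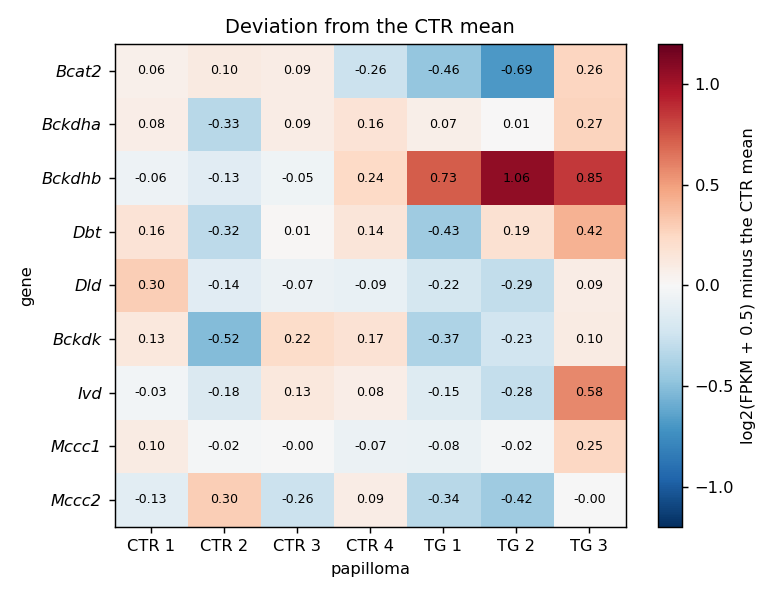
Deviation of each member with a mean of at least 0.5 FPKM from its CTR mean, in log2(FPKM + 0.5), for every papilloma (red higher, blue lower). *Bckdhb* has 0.73, 1.06 and 0.85 in the TG papillomas, each above its highest CTR value of 0.24, and TG 3 has the highest value of the row for 5 of the 9 genes.

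The members lay on both sides of 0, and their median says nothing beyond the choice of the list. The median log2 difference was 0.05 (n = 9), beside 0.06 for all 12299 genes, with 5 positive and 4 negative. TG 3 had the highest value for 5 of them, *Bcat2*, *Bckdha*, *Dbt*, *Ivd* and *Mccc1*. Its median FPKM over all symbols kept was also the highest, and the main fit did not rescale FPKM. Without TG 3 the median was -0.22 (n = 9), against -0.03 for the 11990 genes then tested. *Bcat2*, *Dld* and *Mccc2* then lay below each CTR papilloma in TG 1 and TG 2, and *Bckdhb* above. Of all genes in that comparison of 4 with 2 papillomas, 8.97% lay wholly above and 9.03% wholly below.

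By mean FPKM over the 7 papillomas, which takes transcript length into account, the order of levels was *Bckdhb* (30.1), *Dld* (25.2), *Bckdk* (13.2), *Ivd* (10.4), *Bckdha* (10.3), *Bcat2* (8.09), *Mccc2* (2.84), *Mccc1* (2.73), *Dbt* (2.01) and *Bcat1* (0.0924). The ranges of *Bckdhb* and *Dld*, of *Bckdk*, *Ivd*, *Bckdha* and *Bcat2*, and of *Mccc2*, *Mccc1* and *Dbt*, each overlapped with their neighbours in this order.

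The rest of the pathway, which the rule did not use, was tested. Its lists were still chosen with earlier results of these data known. limma compared TG with CTR papillomas over all 12299 genes, and with Benjamini-Hochberg adjustment 0% passed as higher and 0% as lower. The induced gene *Nanog* was among those that did not pass, whereas the paper's own Cufflinks test listed it as upregulated. A gene that did not pass is therefore not shown to be unchanged. Before adjustment, 598 genes (4.86%) were higher and 241 (1.96%) lower with p under 0.05. Of 26 further genes for uptake, control and the later branches, 25 were tested and 0 passed in either direction. Before adjustment 0 were higher and 2 lower, and the median over the 25 log2 difference was 0.04.

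Among the 8 uptake and control genes, the 2 lower ones were *Slc3a2* and *Slc7a8*. *Slc3a2*, the heavy chain of the leucine transporter (chromosome 19, from 8706882 to 8723369), was at 82.6, 51.4, 62.3 and 53.0 FPKM in CTR papillomas. In TG papillomas it was at 41.8, 46.2 and 46.1 FPKM, below each CTR value. limma put TG at -0.45 ± 0.19 (log2, standard error) with an adjusted p of 0.729 (0.234 to 0.999 over the alternatives), so it did not pass. *Slc7a8*, a light chain of such transporters, is named because of its value. It was at 8.97 ± 3.08 FPKM (SD, n = 4) in CTR and 4.58 ± 2.09 FPKM (SD, n = 3) in TG papillomas. The limma difference was -0.92 ± 0.39 (log2, standard error), with an adjusted p of 0.720.

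All 12 genes of the branches after the dehydrogenase step were tested. *Hadhb*, the beta subunit of the trifunctional protein of fatty acid oxidation and the most abundant of them, was at 53.4 ± 10.7 FPKM (SD, n = 4) in CTR and 55.1 ± 1.31 (SD, n = 3) in TG papillomas. *Hsd17b10*, which acts in isoleucine breakdown, was at 18.7, 25.8, 23.1 and 18.2 FPKM in CTR and at 18.0, 11.98 and 17.6 FPKM in TG papillomas, each TG value below each CTR value by a narrow margin. limma put TG at -0.43 ± 0.20 (log2, standard error) with an adjusted p of 0.775 (0.109 to 0.999 over the alternatives). The genes of this list lay between -0.43 and 0.36 on the log2 scale.

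The 6 genes that carry propionyl-CoA, the end product of isoleucine and valine, to succinyl-CoA lay between -0.27 and 0.12. *Mcee*, the epimerase of that route and its most abundant gene, was at 9.92, 10.7, 12.2 and 9.77 FPKM in CTR and at 7.42, 9.48 and 9.34 FPKM in TG papillomas. Each TG value was below each CTR value, at -0.27 ± 0.16 in limma (log2, standard error) with an adjusted p of 0.826 (0.483 to 1.00 over the alternatives). Over the 25 genes tested, 0 lay wholly above and 3 wholly below in TG papillomas, namely *Slc3a2*, *Hsd17b10* and *Mcee*. Read against the shares over all genes (4.93% and 2.23%), this is 3 genes, and each missed the adjusted threshold.

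**Figure D4:**
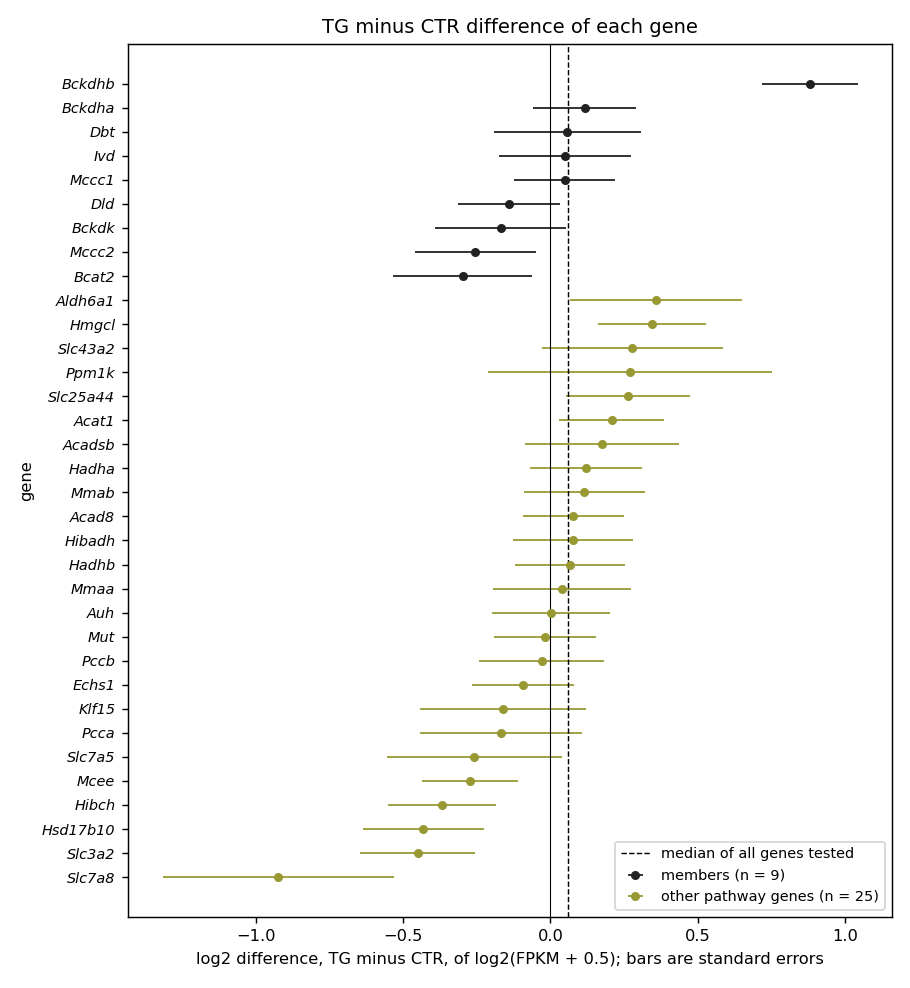
TG minus CTR difference in log2(FPKM + 0.5) for the 9 members (black) and the 25 other pathway genes tested (olive), with limma standard errors as bars and a dashed line at the median of all genes tested (0.06). *Bckdhb* lies at 0.88, and the other members lie between -0.30 and 0.12.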

How the data were processed

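RNA-seq of papillomas from CTR (n = 4) and TG (n = 3) mice was used, with groups and numbers taken from the sample titles. The authors made stranded polyA+ libraries, sequenced 40 bases from 1 end and used TopHat 2.0.4, with Bowtie 0.12.7 and SAMtools 0.1.16, for alignment (GRCm38/mm10), followed by Cufflinks 1.3.0 with UCSC gene models. They deposited FPKM values with an interval and a status. The strand setting of Cufflinks is not given in the sources used here. FPKM has no read numbers, so reads were implied from the interval, as the square of 2 x FPKM over its upper half-width. Such reads and intervals cover counting error only.

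FPKM was summed over the entries of a symbol (240 symbols had more than 1 locus), and 162 symbols with a failed estimate in any library were left out. log2(FPKM + 0.5) was fitted for the 12299 genes averaging 0.5 FPKM or more with limma 3.58.1 in R 4.3.3 (variance trend, 2-sided, Benjamini-Hochberg adjustment over all genes, threshold 0.05). Differences on this scale understate changes of low genes. Python 3.11.15, pandas 2.3.3 and matplotlib 3.10.9 were used. How often the fit misses or wrongly passes a gene in these papillomas was not tested. Locus starts were shifted by 1 to be 1-based.

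The members and lists were chosen with earlier results of these data known. Named genes were the members, *Nanog* and, from each list, the most abundant gene and those without overlap between genotypes among the tested genes. *Slc7a8*, *Pdk3* and *Slc43a1* were named after their values were seen. *Pcx* was matched by synonym, and *Ogdh* had a failed estimate. Alternatives were 2 pseudocounts, 2 filters, 2 scalings, no trend, quality weights, the highest entry, all statuses, a replicate block and leaving out each papilloma. The authors' differential test with Cufflinks was not run, as it needs aligned reads.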

Additional observations from a re-analysis of the deposited data

Results flagged for a closer look

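In the CTR group, 3 of the 16 genes examined had 1 papilloma far from the other 3 by Dixon's criterion, which chance meets in about 1 in 20 groups. The gap to the nearest papilloma was 0.878 of the group's range for *Bcat2*, 0.864 for *Dld* and 0.839 for *Bckdk*. *Bcat2* was at 7.17 FPKM in CTR 4, with the other 3 CTR papillomas at 9.08 to 9.34. *Dld* was at 32.1 FPKM in CTR 1, against 23.7 to 24.8 in the others. *Bckdk* was at 9.37 FPKM in CTR 2, against 15.0 to 16.04. The papilloma was a different one for each of these genes. *Nanog*, which was not among the genes examined, was at 12.7 FPKM in CTR 3, against 2.70 to 3.34 in the other CTR papillomas.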

How the results depend on the processing

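18 alternatives were run. Only the 2 scalings could bring the TG and CTR values of *Bckdhb* into overlap, and under both each TG value stayed above each CTR value. The other alternatives keep its values or their order, or leave a papilloma out, which cannot create overlap. Its log2 difference was 0.79 to 0.96 over all 18. *Bcat2*, *Dld*, *Bckdk* and *Mccc2* were negative in all 18, and *Bckdha*, *Dbt*, *Ivd* and *Mccc1* changed sign in some. With quantile normalization, 1 member (*Mccc2*) was wholly lower in TG papillomas. With 1 papilloma left out, 1 to 2 members were wholly higher (*Dbt* joined without TG 1) and 0 to 3 wholly lower (*Bckdk* without CTR 2; *Bcat2*, *Dld* and *Mccc2* without TG 3). The median difference of the members was -0.24 with quality weights and between -0.22 (without TG 3) and 0.11 (without TG 1) when a papilloma was left out. Over all genes, quality weights called 49 higher and 36 lower, and leaving out 1 papilloma called 0 to 9 higher and 0 to 8 lower, the most without TG 3. Of the other pathway genes, 0 were called under any alternative. With 1 papilloma left out, *Hadhb* ranged from -0.046 (without CTR 3) to 0.18 and *Pdhb* from -0.14 to 0.050 (without TG 2). The labels share replicate numbers but name no pairs, and same-numbered papillomas deviated from their group means with correlations of -0.19, 0.04 and -0.15 across genes. CTR 4 has no TG papilloma of its number, so the replicate block gave the members the same log2 differences as leaving out CTR 4. With the replicate block, 0 genes were called, 505 were higher and 170 lower before adjustment, and the members' median was 0.02. The block changed no call. The cause of these shifts was not tested. Depth limits *Bcat1* most, with 3.2 to 25.7 implied reads.

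Before adjustment, 598 genes passed as higher and 241 as lower. Scaling moved this split to 515 and 418 with upper-quartile scaling and to 403 and 551 with quantile normalization, and quality weights gave 1161 and 1248.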

Other observations

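A further list held genes of the other 2-oxo acid dehydrogenase complexes, pyruvate dehydrogenase kinases and phosphatases, and *Gcsh* of the glycine cleavage system. Of these, 12 genes were tested, and the estimate of *Ogdh* failed in a library. limma passed 0 of them in either direction, and at an unadjusted p under 0.05 there were 0 higher and 1 lower, *Pdk3*, a pyruvate dehydrogenase kinase (11.1 ± 2.28 FPKM in CTR, SD, n = 4, and 7.61 ± 2.13 in TG papillomas, SD, n = 3; log2 difference -0.52, adjusted p = 0.726 from limma), named because of its value. *Pdhb*, the E1 beta subunit of pyruvate dehydrogenase, was at 38.0 ± 3.62 FPKM (SD, n = 4) in CTR and 36.3 ± 5.07 (SD, n = 3) in TG papillomas, a log2 difference of -0.07 that turned to 0.05 without TG 2. None of the 12 separated the genotypes.

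Of 5 genes for biotin enzymes and biotin handling, the cofactor of MCCC1, 4 were tested and 0 passed in limma, at an adjusted as at an unadjusted p under 0.05. *Acaca*, which makes malonyl-CoA for fatty acid synthesis, was the most abundant, at 6.86 ± 1.98 FPKM (SD, n = 4) in CTR and 8.80 ± 1.76 FPKM (SD, n = 3) in TG papillomas (log2 difference 0.37, adjusted p = 0.842 from limma, 0.569 to 1.00 over the alternatives). *Slc43a1*, a branched-chain amino acid transporter below the FPKM minimum and named because of its value, was at 0.107, 0.0884, 0.119 and 0.0248 FPKM in CTR and at 0.148, 0.216 and 0.560 FPKM in TG papillomas.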
